A study of Mus musculus with 16 samples.

Results

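Expression of 8 genes that supply NADPH and pentose sugars was examined in the gonadal fat of mice: G6pdx, Pgls, Pgd, Rpia, Rpe, Tkt, Taldo1 and Idh1. They were listed by name for their place in the biochemistry, with earlier results of these data known, and all 8 of 8 were found among the 24454 genes of the deposited count table, where genes carry NCBI gene numbers. All 8 also passed the filter on low counts that left 16682 genes for testing. The lowest count of any of these genes in any library was 402, for Rpia.

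The fat came from male C57BL/6J mice that were lean, aged 16 weeks and kept on standard chow. C57BL/6J is an inbred strain of laboratory mouse. The mice of every group had an operation, either sham surgery or subdiaphragmatic vagotomy (sDVX), which cuts the vagus nerve below the diaphragm. After 4 weeks, every mouse received an infusion into a brain ventricle from an osmotic minipump for 2 weeks, of vehicle or of SHU9119 at 1 nmol per day, with calories held equal between groups. SHU9119 is a synthetic peptide that blocks melanocortin receptors. The 4 groups of 4 libraries are called Sham_Veh, Sham_SHU, VX_Veh and VX_SHU, each with its replicate number, and the design asks whether blocked melanocortin receptors change fat and whether the vagus is needed for it. The labels do not say that each library is a separate mouse, so p-values here measure the spread between libraries, which may be technical.

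The pentose phosphate pathway branches from glycolysis at glucose 6-phosphate. Its oxidative arm releases NADPH, the reducing agent that fatty acid and sterol synthesis and the glutathione system spend, and its non-oxidative arm shuffles sugars back to glycolysis or on to ribose for nucleotides. In white fat the oxidative arm is known as a main source of NADPH for fatty acid synthesis, beside malic enzyme, and its enzymes are classically raised by feeding and insulin.

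In the oxidative arm, G6pdx (gene 14381) encodes glucose-6-phosphate dehydrogenase, which makes the committed NADPH-releasing step, and lies on the X chromosome from 74409483 to 74428880 in GRCm38. Pgls (66171; chromosome 8, 71592184 to 71596267) encodes the lactonase that follows it. Pgd (110208; chromosome 4, 149149991 to 149166705) encodes 6-phosphogluconate dehydrogenase, which releases more NADPH and yields ribulose 5-phosphate. In the non-oxidative arm, Rpia (19895; chromosome 6, 70765720 to 70792175) encodes the isomerase that turns ribulose 5-phosphate into ribose 5-phosphate, and Rpe (66646; chromosome 1, 66700797 to 66719805) the epimerase that turns it into xylulose 5-phosphate. Tkt (21881; chromosome 14, 30549131 to 30574724) and Taldo1 (21351; chromosome 7, 141392160 to 141402976) encode transketolase and transaldolase, which move carbon units between sugars. Idh1 (15926; chromosome 1, 65158616 to 65186479) encodes cytosolic isocitrate dehydrogenase, which makes NADPH outside the pathway.

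The 250 bases upstream of an annotated start are shown for Pgd, Rpe, G6pdx and Tkt. The values of these 4 genes are given library by library below. The window of Rpe ends at 66700830, inside the gene range given above, which begins at 66700797. Each is written 5′ to 3′ on the gene's strand, from RefSeq in build GRCm38.p6, and capitals mark letters that match a searched motif.
Pgd (chr4:149166706-149166955, minus strand): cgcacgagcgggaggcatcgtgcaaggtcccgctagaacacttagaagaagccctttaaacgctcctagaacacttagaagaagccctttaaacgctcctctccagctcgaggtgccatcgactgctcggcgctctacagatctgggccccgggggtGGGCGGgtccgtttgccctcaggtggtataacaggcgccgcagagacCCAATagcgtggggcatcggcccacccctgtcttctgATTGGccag
Rpe (chr1:66700581-66700830, plus strand): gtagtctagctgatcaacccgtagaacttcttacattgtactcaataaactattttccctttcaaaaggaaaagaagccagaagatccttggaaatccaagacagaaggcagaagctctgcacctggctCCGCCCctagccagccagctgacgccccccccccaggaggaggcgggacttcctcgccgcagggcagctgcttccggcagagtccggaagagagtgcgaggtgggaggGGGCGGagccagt
G6pdx (chrX:74428881-74429130, minus strand): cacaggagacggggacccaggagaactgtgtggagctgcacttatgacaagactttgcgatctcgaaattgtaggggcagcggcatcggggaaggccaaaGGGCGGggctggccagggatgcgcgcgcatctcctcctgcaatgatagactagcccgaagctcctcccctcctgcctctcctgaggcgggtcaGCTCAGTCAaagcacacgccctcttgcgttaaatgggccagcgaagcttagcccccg
Tkt (chr14:30548881-30549130, plus strand): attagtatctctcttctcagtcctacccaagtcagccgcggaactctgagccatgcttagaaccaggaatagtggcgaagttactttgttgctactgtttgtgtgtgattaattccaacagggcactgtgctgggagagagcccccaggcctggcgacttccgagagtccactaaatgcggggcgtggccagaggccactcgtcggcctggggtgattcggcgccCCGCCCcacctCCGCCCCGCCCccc

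The 5 motifs were searched on both strands, with overlapping matches kept. The GC box GGGCGG, to which factors of the Sp family bind, matched 1 time in Pgd, 2 times in Rpe, 1 time in G6pdx and 3 times in Tkt. In Rpe, the match nearer the end of the window lies inside the gene range given above. All 8 genes had at least 1 GC box in their principal window, against 32.7% of the 32851 windows of the same length in the table. The CCAAT box occurred 2 times in Pgd and in 33.8% of all windows. The antioxidant response element core TGACNNNGC matched 1 time in G6pdx and in 10.2% of all windows. Neither the sterol regulatory element TCACNCCAC (1.05% of all windows) nor the E-box CACGTG (6.02%) was found in the windows of the 8 genes. These are matches of letters and not mapped binding sites, and the window of another annotated start of Pgd had no match to any of the motifs.

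Across all 16 libraries and per kilobase of exon, Tkt stood highest at 438.9 ± 237 CPM per kb, where CPM is the count scaled to library size (SD, n = 16). Taldo1 followed at 310.7 ± 91, Pgd at 248.9 ± 109, Idh1 at 160.3 ± 42.1 and G6pdx at 105.9 ± 44.7 CPM per kb. Pgls stood at 33.96 ± 4.79, Rpe at 28.49 ± 7.83 and Rpia at 14.42 ± 2.04 CPM per kb. Among the 8 genes, 5 were thus higher and 3 lower, with the isomerase lowest. Some neighbours in this order overlapped: Tkt exceeded Taldo1 in 13 of 16 libraries, Taldo1 exceeded Pgd in 15, Pgd exceeded Idh1 in 15 and Pgls exceeded Rpe in 13. Idh1 over G6pdx, G6pdx over Pgls and Rpe over Rpia held in 16 of 16. The mean of Tkt was 30.4 times that of Rpia, and 11.2 to 58 times in the libraries taken singly.

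Tkt also varied most. From the lowest to the highest library, the CPM of Tkt spanned 6.02-fold, of G6pdx 4.36-fold and of Pgd 3.75-fold. The span of the CPM was 2.88-fold for Taldo1 and 2.78-fold for both Rpe and Idh1. Rpia spanned 1.76-fold and Pgls 1.54-fold, so the lactonase and the isomerase were nearly flat over the 4 groups.

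**Figure D1:**
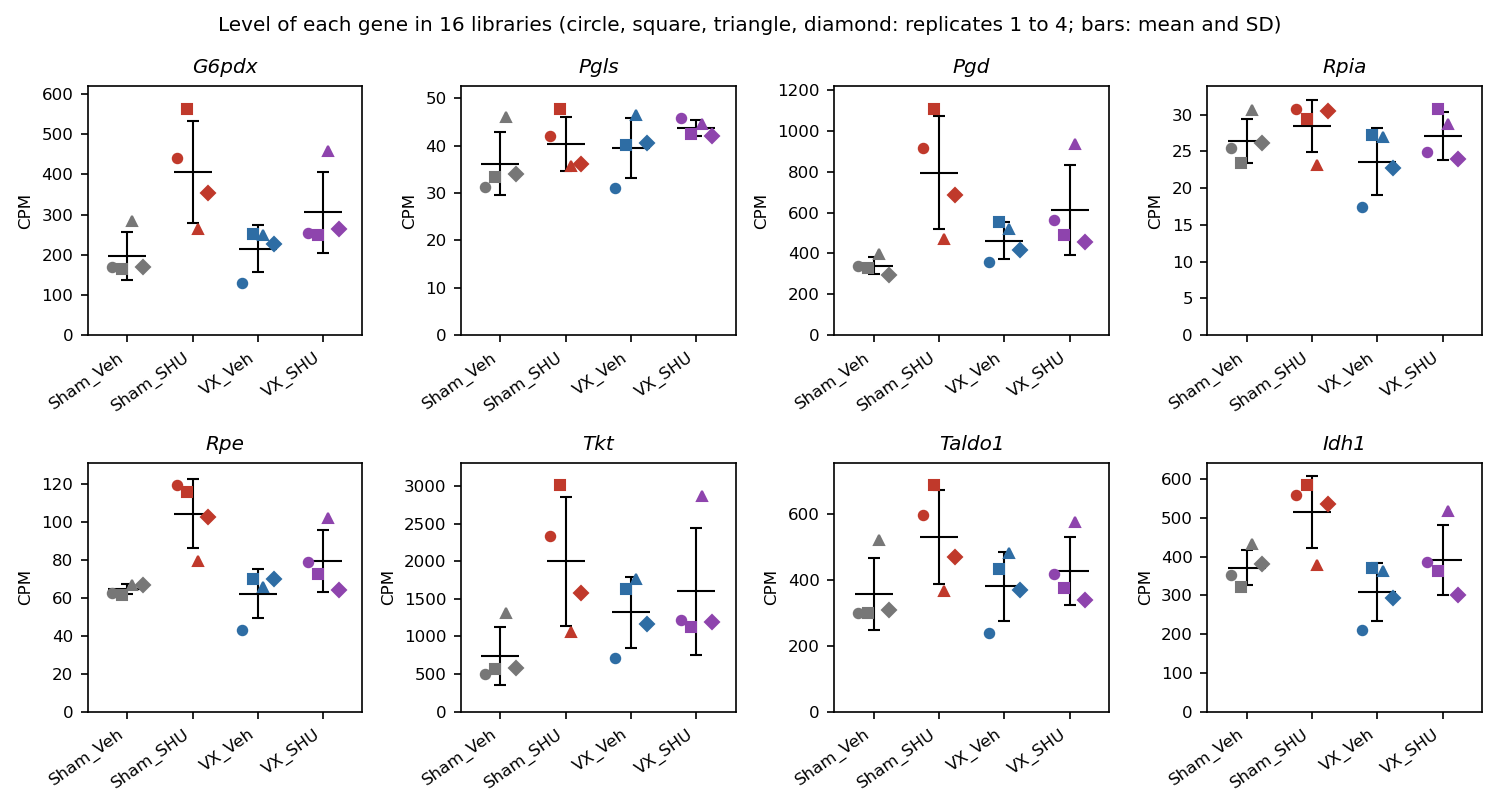
CPM of the 8 genes in each of the 16 libraries, by group, with a horizontal line for the group mean and an error bar for the SD (n = 4). Each panel has its own linear axis from 0, and marker shapes stand for replicate numbers. Pgd and Rpe are higher in all 4 Sham_SHU libraries than in all 4 Sham_Veh libraries, while Pgls and Rpia differ little between groups.

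SHU9119 was compared with vehicle over both surgeries, with the effect averaged over sham and sDVX mice. Pgd rose, with a log2 fold change of 0.82 ± 0.189 (± SE), and so did Rpe, with 0.52 ± 0.122 (edgeR adjusted p = 0.0489 for each). These 2 of the 8 genes, an oxidative and a non-oxidative enzyme, passed the threshold of 0.05 as higher, and none passed as lower. Of all genes tested, 1.5% passed as higher and 1.87% in either direction. All 8 estimates were above 0, with a median of 0.47 against −0.03 over all genes, and 44.6% of all genes had an estimate above 0.

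The other 6 genes did not pass in this comparison. G6pdx had a log2 difference of 0.78 ± 0.207 (edgeR adjusted p = 0.0625), Tkt by 0.85 ± 0.306 (0.102), Idh1 by 0.41 ± 0.142 (0.097) and Taldo1 by 0.37 ± 0.187 (0.212). Pgls and Rpia had a log2 difference of 0.15 each. Unadjusted p was under 0.05 for 5 of the 8 genes, all higher, and for 12.8% of all genes as higher. DESeq2 called 5 of the 8 genes, G6pdx, Pgd, Rpe, Tkt and Idh1, where it called 16.7% of all genes in either direction.

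The calls for Pgd and Rpe rested close to the threshold. When each library was left out in turn, the adjusted p ran from 0.0163 to 0.102 for Pgd and from 0.0181 to 0.109 for Rpe, and 0 to 4 of the 8 genes passed. None of the 8 genes passed when any 1 of 11 libraries was left out, nor when the filter on low counts was dropped. Without Sham_SHU3 4 of the 8 passed, with 9.58% of all genes. Without VX_Veh4 or without VX_SHU4 2 passed (5.07% and 2.24% of all genes), and without Sham_Veh4 or without VX_Veh1 1 (2.62% and 1.21%). In the 11 other fits 0.0177% to 1.44% of all genes passed. The estimates stayed between 0.68 and 0.92 for Pgd and between 0.45 and 0.59 for Rpe.

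In sham mice, Pgd stood at 338.2, 326.6, 396.4 and 295.9 CPM in the Sham_Veh libraries and at 915.9, 1109, 469.7 and 686 CPM in the Sham_SHU libraries. The groups did not overlap, and the nearest SHU9119 library was Sham_SHU3, while 5.6% of all genes were as cleanly higher. The group means were 339.3 ± 42.1 and 795.2 ± 278 CPM (SD, n = 4), a log2 difference of 1.23 ± 0.269 (edgeR adjusted p = 0.0687). After sDVX, Pgd stood at 358, 552.8, 520.7 and 416.3 CPM under vehicle and at 563.2, 492.7, 935.4 and 456.4 CPM under SHU9119. These groups overlapped, as they did for all 8 genes, while 2.93% of all genes were higher under SHU9119 without overlap. VX_SHU2 and VX_SHU4 lay inside the vehicle range and VX_SHU3 alone far above it.

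Rpe stood at 62.81, 61.63, 66.79 and 66.83 CPM in the Sham_Veh libraries, a narrow range. It stood at 119.5, 115.8, 79.27 and 102.9 CPM in the Sham_SHU libraries, again with no overlap and with Sham_SHU3 nearest. The log2 difference was 0.69 ± 0.172 (edgeR adjusted p = 0.0818). After sDVX the values were 42.99, 69.8, 65.51 and 70.08 CPM under vehicle and 78.74, 72.5, 102 and 64.34 CPM under SHU9119, where only VX_SHU4 lay within the vehicle range.

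G6pdx stood at 170.3, 164.2, 284.9 and 168.5 CPM in the Sham_Veh libraries and at 441.8, 563.3, 263.4 and 354.7 CPM in the Sham_SHU libraries. The groups overlapped through 2 libraries, Sham_Veh3, which was high, and Sham_SHU3, which was low. The log2 difference was 1.04 ± 0.294 (edgeR adjusted p = 0.0992). After sDVX, G6pdx stood at 129.2, 251.8, 250.3 and 227.9 CPM under vehicle and at 254.1, 249.4, 457.2 and 263.1 CPM under SHU9119. VX_SHU2 lay inside the vehicle range, and VX_SHU3 stood well above the rest.

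Tkt stood at 500.4, 571.6, 1317 and 585.9 CPM in the Sham_Veh libraries and at 2338, 3011, 1059 and 1578 CPM in the Sham_SHU libraries. The same 2 libraries, Sham_Veh3 and Sham_SHU3, made these groups overlap. The log2 difference of 1.42 ± 0.438 was the largest of the 8 genes and did not pass (edgeR adjusted p = 0.119). After sDVX, Tkt stood at 719.7, 1630, 1759 and 1165 CPM under vehicle and at 1220, 1125, 2864 and 1187 CPM under SHU9119, with 3 of the 4 SHU9119 libraries inside the vehicle range.

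Taldo1 and Idh1 had the same shape with smaller gaps. Taldo1 ran from 300.2 to 521.5 CPM in the Sham_Veh libraries and from 365.5 to 687.3 in the Sham_SHU libraries, and from 238.5 to 480 and 339.4 to 574.5 after sDVX. Idh1 ran from 323.1 to 431.7 CPM and from 378.9 to 584.8 in sham mice, and from 210.4 to 372.1 and 301.7 to 517.6 after sDVX. Vehicle and SHU9119 overlapped in each of these pairs. Pgls, from 31.07 to 47.85 CPM over all 16 libraries, and Rpia, from 17.49 to 30.8 CPM, overlapped between all groups.

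No gene of the 8 passed in sham mice taken alone by edgeR, where 0.114% of all genes passed. Unadjusted p was under 0.05 for 5 of the 8 genes, all higher, against 11% of all genes as higher. DESeq2 called 4 of the 8 genes, Pgd (adjusted p = 0.00048), Rpe (0.00616), G6pdx (0.00956) and Tkt (0.0138), and 7.22% of all genes. The remaining differences were 0.57 ± 0.265 for Taldo1 (edgeR adjusted p = 0.256), 0.47 ± 0.201 for Idh1 (0.226), 0.16 ± 0.139 for Pgls (0.529) and 0.11 ± 0.144 for Rpia (0.681). The median of the 8 was 0.63, against −0.06 over all genes. Counted by libraries that did not overlap, 2 of the 8 genes, Pgd and Rpe, were higher under SHU9119, against 5.6% of all genes. Left out in turn, Sham_SHU3 had the most weight: without it edgeR called G6pdx, Pgd, Rpe and Tkt and 5.83% of all genes. Without VX_Veh1 it called G6pdx, Pgd and Rpe and 3.11% of all genes, and without VX_SHU3 Pgd and 1.05%.

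After sDVX, no gene of the 8 passed for SHU9119 against vehicle by edgeR, none had an unadjusted p under 0.05, and DESeq2 called none. Of all genes, 0.00599% passed (0.324% by DESeq2) and 11.6% had an unadjusted p under 0.05. The log2 differences were 0.51 ± 0.291 for G6pdx, 0.41 ± 0.266 for Pgd, 0.35 ± 0.172 for Rpe, 0.34 ± 0.201 for Idh1 and 0.28 ± 0.43 for Tkt. Rpia, Taldo1 and Pgls stood at 0.2, 0.17 and 0.14. The median was 0.31, against −0.02 over all genes. Without VX_SHU3, Tkt stood at −0.16 and Taldo1 at −0.01.

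The test of whether SHU9119 acted differently after sDVX than after sham surgery is the interaction. Its estimate was −1.15 ± 0.609 for Tkt, −0.82 ± 0.376 for Pgd, −0.53 for G6pdx, −0.4 for Taldo1, −0.34 for Rpe and −0.13 for Idh1 on the log2 scale. Pgls stood at −0.02 and Rpia at 0.09. The edgeR adjusted p was 0.999 for each of the 8 genes, and 0% of all genes passed. Only Pgd had an unadjusted p under 0.05 (0.0464), as did 4.76% of all genes, and DESeq2 called none of the 8 and 0.048% of all genes. A difference between the surgeries in the response of these genes was therefore not shown.

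**Figure D2:**
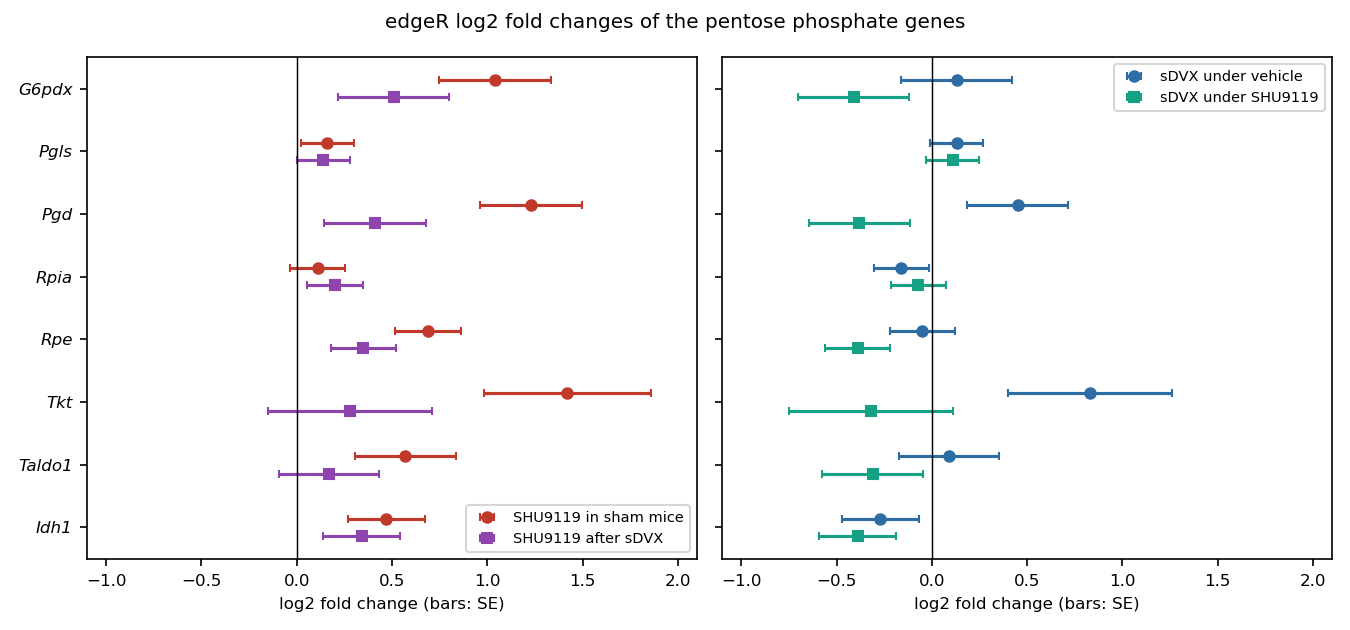
Log2 fold change with its SE (horizontal bar) for each of the 8 genes, from 1 edgeR fit to 16 libraries, for SHU9119 against vehicle (left) and sDVX against sham surgery (right). The SHU9119 estimates lie above 0 for all 8 genes with either surgery, against 43.2% of all genes in sham mice and 46.9% after sDVX. Of the sDVX estimates under SHU9119, 7 of the 8 lie below 0, while 49.1% of all genes lie above 0.

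The effect of sDVX itself was compared under each infusion. Under vehicle, Tkt stood at 743.7 ± 384 CPM after sham surgery and 1318 ± 474 CPM after sDVX, a log2 difference of 0.83 ± 0.432 (edgeR adjusted p = 0.608). Pgd stood at 339.3 ± 42.1 and 462 ± 90.6 CPM (0.45 ± 0.266, adjusted p = 0.635). The other 6 estimates lay between −0.27 for Idh1 and 0.13 for G6pdx and Pgls. None of the 8 had an unadjusted p under 0.05, where 8% of all genes did. No gene passed by edgeR (0% of all genes), no group of 4 libraries was clear of the other for any of the 8 (0.935% of all genes were higher and 2.16% lower without overlap), and DESeq2 called none of the 8 and 0.0659% of all genes.

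Under SHU9119, 7 of the 8 estimates for sDVX were below 0, while 49.1% of all genes had an estimate above 0. G6pdx stood at −0.41, Idh1 and Rpe at −0.39, Pgd at −0.38, Tkt at −0.32 and Taldo1 at −0.31, with Rpia at −0.07 and Pgls at 0.11. Only Rpe had an unadjusted p under 0.05 (0.0376, edgeR adjusted p = 0.466), against 10.7% of all genes. Averaged over infusions, Idh1 stood at −0.33 ± 0.142 (unadjusted p = 0.0359, adjusted p = 0.279), the only 1 of the 8 under 0.05 unadjusted, against 16% of all genes. No gene passed in either comparison by edgeR. Under SHU9119 the libraries of the surgeries overlapped for all 8 genes (3.2% of all genes were higher and 2.44% lower after sDVX without overlap), and DESeq2 called none of the 8, with 0.557% and 2.45% of all genes. These comparisons share libraries with those of SHU9119 and are not independent of them.

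The 8 genes moved together from library to library. Sham_Veh3 was the highest of its group for 7 of the 8 genes and VX_SHU3 for 6. Sham_SHU3 and VX_Veh1 were the lowest of their groups for 8 of 8 genes. Over all 16 libraries, Pearson correlations of log2 CPM between pairs of the 8 ran from 0.49 for Pgls with Idh1 to 0.94 for G6pdx with Taldo1. With group means removed they ran from 0.62 for Pgls with Rpe to 0.98 for G6pdx with Tkt. These describe 16 libraries that share 1 preparation each, and carry no p.

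Markers of adipocytes followed the same libraries. The summed CPM of 8 adipocyte markers (Adipoq, Plin1, Lep, Cidec, Lipe, Pparg, Fabp4 and Retn) was 27190 in Sham_Veh3, the highest of its group, and 25710 in VX_SHU3, the highest of its group. It was 19790 in Sham_SHU3 and 9967 in VX_Veh1, each the lowest of its group. Group means were 20750 ± 4490 CPM (Sham_Veh), 25030 ± 4630 (Sham_SHU), 16970 ± 4970 (VX_Veh) and 21380 ± 4370 (VX_SHU), as mean ± SD with n = 4. All 8 of these markers were above 1 CPM on average. In bulk tissue, fewer adipocytes and less RNA per adipocyte cannot be told apart.

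Markers of motile cilia, which adipocytes lack, ran the other way in these 4 libraries. Their sum over the 11 of 12 genes in the table was 13.92 CPM in Sham_Veh3 and 12.47 in VX_SHU3, and 167.2 in Sham_SHU3 and 1165 in VX_Veh1. Group means were 295.9 ± 197 CPM under vehicle against 62.42 ± 70.5 under SHU9119 in sham mice, and 443.7 ± 498 against 67.22 ± 87.9 after sDVX. Epididymis markers stood at 38.8 to 11050 CPM over the libraries, with 10270 in VX_Veh4 and 11050 in VX_SHU4, and testis markers at 60.4 to 3283. Macrophage markers ran from 586.9 to 1231 CPM, stromal markers from 2586 to 3905, endothelial markers from 672.1 to 1311 and mesothelial markers from 29.22 to 156.6, while 4 of 6 erythroid markers were at 0 in every library. Of the 19 epididymis genes 9 averaged 1 CPM or more, as did all 15 testis and 11 cilia genes. Their part in the values of the 8 genes was not tested. The fits that follow were chosen after the data were seen.

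Without the 6 libraries that held 500 CPM or more of epididymis or testis markers (2 left in each sham group and 3 in each sDVX group), 6 of the 8 genes rose in the averaged comparison, with Pgls and Rpia not past the threshold, and 24.4% of all genes passed. The estimates were 1.11 for G6pdx, 1.06 for Pgd and 0.73 for Rpe (edgeR adjusted p = 0.0326 for each), 1.35 for Tkt (0.0353), 0.69 for Taldo1 (0.0486) and 0.61 for Idh1 (0.0463). In sham mice alone this fit called none of the 8 and 0% of all genes. With the sums of epididymis, testis and cilia markers as 3 covariates, none of the 8 passed in any comparison, and no gene at all passed in the averaged comparison of SHU9119. With the adipocyte sum as a covariate, Pgd (0.95, adjusted p = 0.0368), Rpe (0.5, 0.0361) and G6pdx (0.74, 0.046) passed in sham mice, with 1.72% of all genes. None of the 8 passed in the averaged comparison of that fit, where 0.144% of all genes did. Averaged over surgeries, the fit with 3 covariates gave 0.47 for Pgd, 0.29 for Rpe, 0.35 for G6pdx, 0.24 for Tkt, 0.18 for Idh1 and 0.01 for Taldo1. The fit with the adipocyte sum gave 0.51 for Pgd, 0.32 for Rpe, 0.45 for G6pdx, 0.37 for Tkt, 0.16 for Idh1 and 0.05 for Taldo1.

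**Figure D3:**
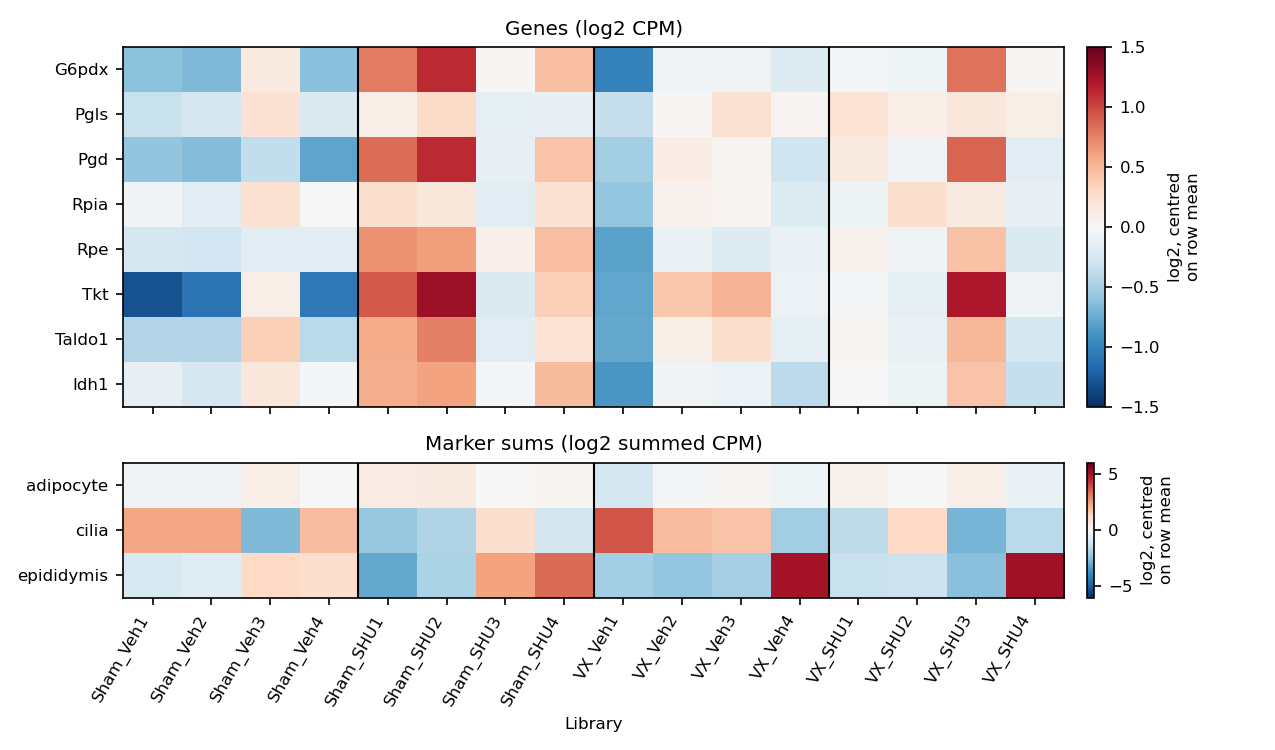
Heat map of the 8 genes (top) and of the adipocyte, cilia and epididymis marker sums (bottom) in the 16 libraries, as log2 CPM minus the row's mean. The top and bottom colour scales differ, and black lines part the 4 groups. Columns Sham_Veh3 and VX_SHU3 are high for the pentose genes and adipocyte markers within their groups, and Sham_SHU3 and VX_Veh1 are low.

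The values were also set against the adipocyte marker sum. Per 1000 CPM of adipocyte markers, Tkt stood at 34.4 ± 9.49 CPM in Sham_Veh (SD, n = 4). It stood at 77.1 ± 20.5 CPM in Sham_SHU, at 76.6 ± 7.65 after sDVX with vehicle and at 73.5 ± 27.6 after sDVX with SHU9119. The highest Sham_Veh library, at 48.4, lay below the lowest library of each other group, at 53.5, 68.1 and 52.1. Pgd stood at 16.7 ± 2.51, 31 ± 5.74, 28.3 ± 5.42 and 28.4 ± 5.96 in the same order of groups. G6pdx stood at 9.41 ± 0.939, 15.9 ± 2.39, 12.7 ± 0.668 and 14.4 ± 3.48. For these 3 of the 8 genes all 12 other libraries lay above all 4 Sham_Veh libraries, as they did for 0.372% of all genes.

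By the same ratio, 4 of the 8 genes (G6pdx, Pgd, Rpe and Tkt) were higher without overlap under SHU9119 in sham mice, against 1.74% of all genes. Under vehicle, 5 of the 8 (G6pdx, Pgls, Pgd, Tkt and Taldo1) were higher without overlap after sDVX, against 2.73% of all genes. None were for SHU9119 after sDVX or for sDVX under SHU9119, where 0.222% and 1.94% of all genes were. Per Adipoq alone, the counts were 5 of 8 in sham mice (3.96% of all genes) and 5 of 8 for sDVX under vehicle (1.58%). They were 0 of 8 for SHU9119 after sDVX (0.228%) and for sDVX under SHU9119 (1.85%), and 4 of 8 lay above all Sham_Veh libraries in the 12 others (0.48%). These ratios were chosen after the values were seen, carry no test, and take Lep and 7 other genes as a fixed yardstick although those may change themselves. In the fit with the adipocyte sum as a covariate, Tkt had a log2 difference of 1.35 ± 0.249 for sDVX under vehicle (edgeR adjusted p = 0.145).

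**Figure D4:**
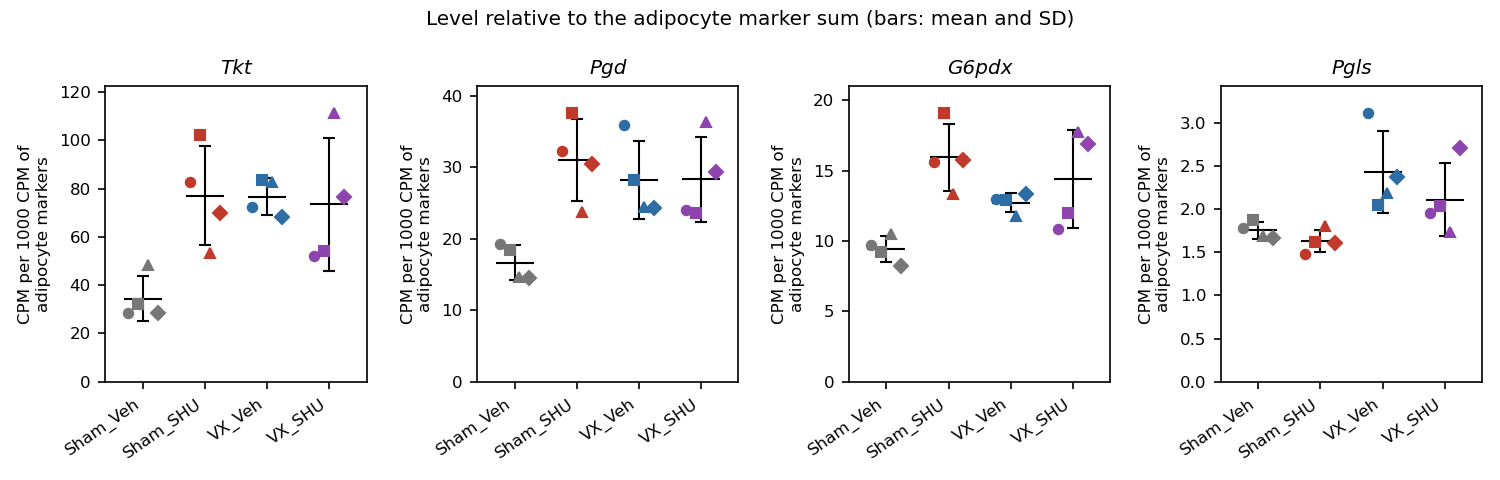
CPM of Tkt, Pgd, G6pdx and Pgls per 1000 CPM of the 8 adipocyte markers in each library, by group, with horizontal lines for group means and bars for the SD (n = 4), on linear axes from 0. For Tkt, Pgd and G6pdx all 4 Sham_Veh libraries lie below the 12 others.

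The mean share of transketolase among the transcripts of the 8 genes was lowest in the control group. Of the summed CPM per kb of the 8 genes, Tkt made up 23.6% ± 4.9 in Sham_Veh and 33.2% ± 3.88 in Sham_SHU, and 34.2% ± 3.43 (vehicle) and 33.2% ± 4.95 (SHU9119) after sDVX (SD, n = 4, no test). The libraries overlapped: the highest Sham_Veh share, 30.7%, lay above the lowest of Sham_SHU (29%), VX_Veh (30%) and VX_SHU (29.8%). The sum of the 8 genes was 939.3 ± 262, 1816 ± 587, 1171 ± 324 and 1440 ± 513 CPM per kb in Sham_Veh, Sham_SHU, VX_Veh and VX_SHU.

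Genes around the pathway were read from lists by biochemical role. Of 13 further genes of pentose and ribose handling, 11 were tested and none passed in sham mice by edgeR, with a median log2 difference of −0.07 against 0.63 for the 8 genes. Dera, an aldolase for deoxyribose phosphate, had a log2 difference of 0.75 ± 0.172 (edgeR adjusted p = 0.0708). Averaged over surgeries, Prpsap1, a protein associated with the synthetase of phosphoribosyl pyrophosphate, fell by 0.21 on the log2 scale (adjusted p = 0.0499). This call lay at the edge of the threshold and was lost with 3 marker covariates, where no gene passed. With each library left out, 3 to 1612 genes passed in the averaged comparison.

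Among 12 genes listed as other NADPH sources, none passed in sham mice by edgeR and the median was 0.12. Me1, cytosolic malic enzyme, stood at 847.9 ± 382 CPM under vehicle against 3090 ± 1440 under SHU9119 in sham mice, and 1424 ± 591 against 1774 ± 1100 after sDVX, a log2 difference in sham mice of 1.87 ± 0.49 (adjusted p = 0.0879). After sDVX its difference was 0.32. Me2, a mitochondrial malic enzyme, rose by 0.29 ± 0.0691 in the averaged comparison (edgeR adjusted p = 0.0493). It was the only 1 of the 12 genes to pass there, and the list median was −0.01. Me3, also on the list, had an averaged log2 difference of −0.4 ± 0.263 (edgeR adjusted p = 0.332). In sham mice, unadjusted edgeR p was under 0.05 for 3 of the 12 genes as higher and for 1 as lower, Me3. Whether Me2 adds to the supply of NADPH was not tested.

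The genes that spend NADPH on lipid had higher medians. Of 13 in fatty acid and sterol reduction, Dhcr7, which makes the last reduction to cholesterol, rose in sham mice by 1.42 ± 0.2 (edgeR adjusted p = 0.0319), and the median was 0.7. Fasn, fatty acid synthase, stood at 4874 ± 2810 CPM under vehicle against 17440 ± 6910 under SHU9119 in sham mice, and 10040 ± 4390 against 12860 ± 7410 after sDVX (1.84 ± 0.501 in sham mice, adjusted p = 0.0962). Of 12 neighbours in fat synthesis, Scd2, a desaturase, rose by 1.99 ± 0.266 (adjusted p = 0.0271), and the median was 1.33. The calls of Dhcr7 and Scd2 in sham mice were lost without the 6 libraries and when any 1 of 8 libraries was left out, since each of these fits called 0 genes in all. The 8 were VX_SHU1, VX_Veh2, Sham_SHU1, Sham_SHU2 and Sham_SHU4, and replicates 1 to 3 of Sham_Veh. Fits without VX_Veh3, without Sham_Veh4 or with 3 marker covariates called 1 gene each as higher, so Dhcr7 and Scd2 cannot both have passed there. How these calls fared in the other fits is not reported here. Acly, which makes cytosolic acetyl-CoA, and Elovl6, an elongase, had log2 differences of 2.38 ± 0.53 (adjusted p = 0.0687) and 2.52 ± 0.661 (0.0879).

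After sDVX none of these lists had a member past the threshold by edgeR for SHU9119 against vehicle. The medians were 0.21 for the lipid users of NADPH and 0.34 for the neighbours in fat synthesis, and Acly, Fasn and Elovl6 stood at 0.38, 0.36 and 0.25. Under vehicle, the log2 difference of sDVX from sham surgery was 1.59 ± 0.516 for Acly, 1.3 for Elovl6, 1.04 for Fasn and 0.75 for Me1, with edgeR adjusted p from 0.608 to 0.649. In the averaged comparison of SHU9119, Dhcr7 (0.97 ± 0.14, adjusted p = 0.0201) and Scd2 (1.15 ± 0.184, adjusted p = 0.0238) rose. The cilia and adipocyte sums given above move with these groups as well.

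Medians for the redox side of NADPH use lay near 0. Of 12 genes that spend NADPH on redox defence or oxidant production, none passed in sham mice by edgeR and the median was 0.0. Of 10 genes listed for the antioxidant regulator Nrf2, with its own gene Nfe2l2 among them, none passed and the median was 0.12. Of 12 glycolysis genes, 11 were tested and none passed in sham mice, with a median of 0.51. Averaged over surgeries, Pfkp, a phosphofructokinase, rose by 0.45 ± 0.0804 (edgeR adjusted p = 0.0301).

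**Figure D5:**
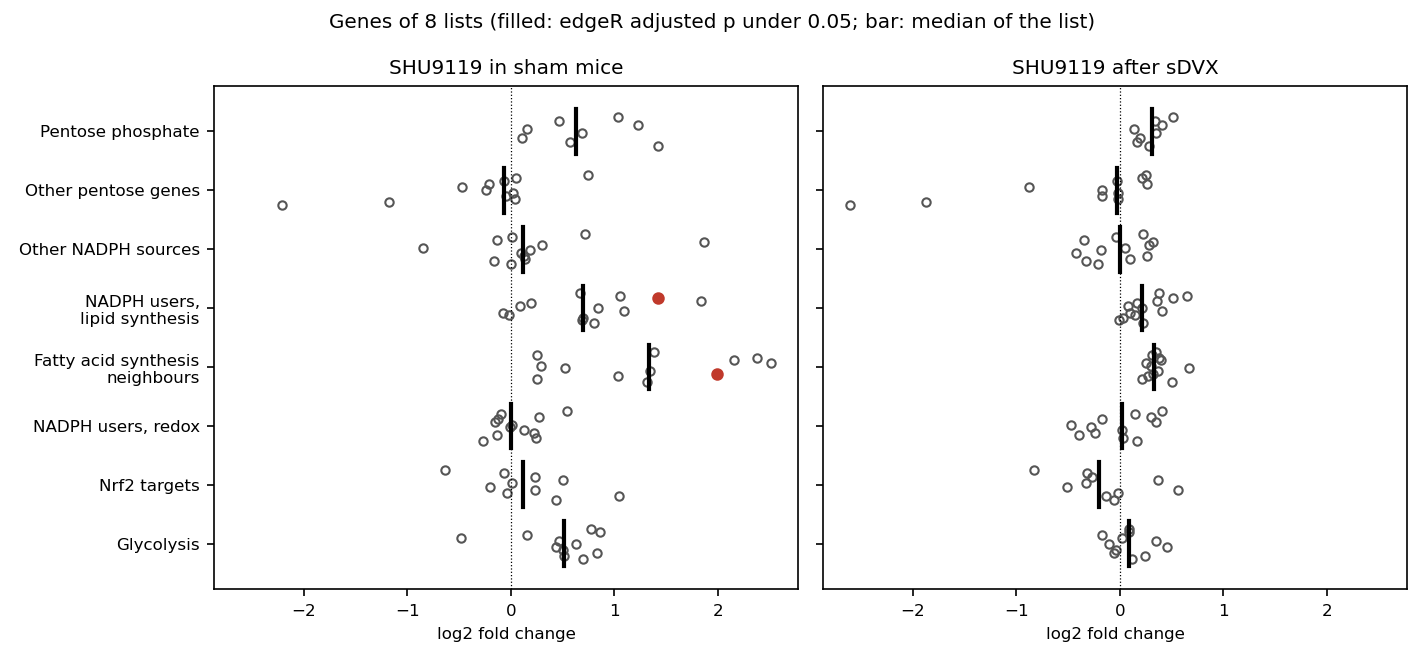
Log2 fold change of SHU9119 against vehicle for each tested gene of the 8 lists, in sham mice and after sDVX, with a vertical bar at the list median and filled points for genes with an edgeR adjusted p under 0.05. Medians in sham mice stand at 0.63 for the 8 genes, 0.7 and 1.33 for the 2 lipid lists and 0.0 for redox users.

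The genes whose log2 CPM followed each of the 8 most closely over 16 libraries were ranked among 11667 genes by Pearson correlation, as a description with no p. The mean of the 8 genes went most closely with Prkaca, a catalytic subunit of protein kinase A, Prdx5, Pdhx, Pmvk and Pygl (0.98 each). Tkt went most closely with Acaca (0.99), which makes malonyl-CoA, and Fasn (0.98). Pgd went with Ppp2r5b (0.98), a regulatory subunit of protein phosphatase 2A, and Ergic1 (0.97). G6pdx went with Mrpl10 and Usp5 (0.98 each) and Taldo1 with Ndufa10 (0.99), a subunit of respiratory complex I, and Mdh2 (0.98), mitochondrial malate dehydrogenase. Rpe went with Sh3kbp1 and Atpaf2 (0.99 each) and Idh1 with Cd1d1 (0.98) and Mmd (0.97). The flat genes had weaker partners in part: Pgls went with Uqcr10 (0.97), a subunit of respiratory complex III, and Rnf187 (0.95), and Rpia with Cdkn2b (0.92) and Hoxc6 (0.91). All of these share the libraries and their mix of cells.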

How the data were processed

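The 16 libraries were polyA RNA-seq of gonadal fat, 4 per group. The authors deposited whole-number counts per gene, and bcl2fastq, TopHat, edgeR and build mm10 are named in the submitters' processing notes. How reads were counted, on which annotation and with which strand rule, is not given in the sources used here. Totals were 20425295 to 30889052 counts. Symbols were matched for 24374 of 24454 gene numbers, and the 80 others held 0.557% to 1.24% of counts. No pair of replicates was a copy, by a chi-square test of their counts.

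In R 4.3.3, edgeR 4.0.16 kept 16682 genes (filterByExpr, TMM factors) and fitted all 16 libraries with robust quasi-likelihood dispersion and a mean for each group, which left 12 residual degrees of freedom. Calls had a Benjamini-Hochberg adjusted p under 0.05 over all genes tested, and standard errors are the log2 fold change divided by the square root of F. Exon lengths and coordinates came from an annotation of GRCm38. The 8 genes and all lists were chosen with earlier results of these data known. Named beside the 8 were, by rule, list genes past the threshold and the 2 of each list with the largest absolute log2 fold change per comparison, at a mean of 5 CPM or more, of which some are not printed. The values of 1 list gene past the threshold are not reported here. Alternatives were DESeq2 1.42.0, its size factors, no filter, a replicate block and leaving out each library. Fits without libraries rich in epididymis or testis markers, or with marker sums as covariates, were chosen after seeing the data. Scripts were tested on simulated data.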

Additional observations from a re-analysis of the deposited data

Results flagged for a closer look

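In 7 of the 32 sets of 4 libraries (8 genes in 4 groups), 1 library stood so far from the other 3 that its gap to the nearest exceeded Dixon's critical share of the group's range for 4 values. Chance marks about 1 in 20 such sets, and the 8 genes move together, so the 7 are not separate events. In Sham_Veh3, G6pdx stood at 284.9 CPM, Tkt at 1317 and Taldo1 at 521.5, each far above the other 3 Sham_Veh libraries. In VX_SHU3, G6pdx stood at 457.2 CPM and Tkt at 2864, above the other 3 VX_SHU libraries. At the low end, Rpe stood at 42.99 CPM in VX_Veh1 and Rpia at 23.17 CPM in Sham_SHU3. G6pdx and Tkt were thus marked as high in both libraries, and Taldo1 in Sham_Veh3. Sham_Veh3 and VX_SHU3 held the highest adipocyte sums and the lowest cilia sums of their groups, and VX_Veh1 and Sham_SHU3 the lowest adipocyte and the highest cilia sums. Whether cell mix has a part in these 7 values was not tested.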

How the results depend on the processing

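The common biological coefficient of variation was 50%, and the median of the values per gene was 22.8%. This spread and 4 libraries per group limit the precision here, and the lowest count of the 8 genes was 402. DESeq2 size factors moved the median of all genes by at most 0.007 (log2).

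All counts below are genes with an adjusted p under 0.05, and the cause of each change was not tested. For SHU9119 in sham mice, 19 genes and none of the 8 by edgeR became 1205 and 4 with DESeq2, 287 and 3 with the adipocyte sum as a covariate, 1 gene with 3 marker covariates, 0 without the 6 libraries with epididymis or testis markers, and 0 to 982 genes and 0 to 4 of the 8 with each library left out. After sDVX, 1 gene became 0 with DESeq2 size factors, no filter, either set of covariates or without the 6 libraries, 54 with DESeq2, and 0 to 1 with each library left out. For sDVX under vehicle, 0 genes became 11 with DESeq2 and 0 to 1 with each library left out. For sDVX under SHU9119, 0 became 93 with DESeq2, 5 with 3 covariates and 0 to 3 with each library left out. For the interaction, 0 became 8 with DESeq2 and 0 to 1. For SHU9119 averaged, 312 genes and 2 of the 8 became 167 and 0 with no filter, 2792 and 5 with DESeq2, 4062 and 6 without the 6 libraries, 0 and 0 with 3 covariates, 24 and 0 with the adipocyte sum, and 3 to 1612 and 0 to 4 with each library left out. For sDVX averaged, 0 became 409 with DESeq2, 1 with 3 covariates and 1 with the adipocyte sum.

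Same-numbered libraries deviated from their group means with correlations from −0.766 to 0.713, so the numbers do not pair them. With the replicate number as a block, SHU9119 in sham mice, after sDVX and averaged each called 0 genes and 0 of the 8.

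Signs turned as follows (log2). With 3 covariates, Pgls was −0.00424 in sham mice, −0.04 after sDVX and −0.02 averaged for SHU9119, and Tkt −0.41 and Taldo1 −0.22 after sDVX. With the adipocyte sum, Rpia was −0.03 for SHU9119 in sham mice, and Pgls −0.02, Tkt −0.27 and Taldo1 −0.19 after sDVX. For sDVX it gave Rpe 0.12 under vehicle, Rpia 0.05 and Tkt 0.07 under SHU9119, and G6pdx 0.16, Rpia 0.02 and Taldo1 0.18 averaged. Without the 6 libraries, Rpia was −0.05 in the interaction and Pgd −0.02 for sDVX averaged. With each library left out, SHU9119 after sDVX ran from −0.16 to 0.45 for Tkt and −0.01 to 0.3 for Taldo1, and sDVX under vehicle from −0.12 to 0.11 for Rpe and −0.04 to 0.33 for Taldo1. The interaction ran from −0.15 to 0.08 for Pgls and −0.04 to 0.16 for Rpia, and sDVX averaged from −0.11 to 0.13 for Pgd and −0.2 to 0.01 for Taldo1. The other estimates of the 8 genes kept their sign.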

Other observations

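The close relatives of the 8 genes that are known from testis were seen in 2 libraries. G6pd2, an intronless copy of G6pdx, had 104 counts in Sham_Veh4 and 48 in Sham_SHU3, and 1 to 10 in the other 14 libraries. The transketolase-like genes followed: Tktl1 had 47 and 23 counts, against 0 to 4 elsewhere, and Tktl2 had 318 and 132, against 0 to 13. In the same 2 libraries the testis marker sum was 3283 and 1601 CPM, and it was 60.4 to 389.3 CPM in the other 14. Reads that G6pd2 and G6pdx share cannot be placed, since the way multiple matches were counted is not given in the sources used here, but the counts of the copy are small beside those of G6pdx.

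Xylb, xylulokinase, which feeds xylulose into the non-oxidative arm, ran from 38 counts in Sham_Veh3 to 3745 in VX_Veh1. These are the libraries with 13.92 and 1165 CPM of cilia markers. For SHU9119 in sham mice Xylb had a log2 difference of −2.21 ± 1.23 (edgeR adjusted p = 0.325). Eno1, the glycolysis gene that was not tested, had 0 to 8 counts in the 16 libraries, and the reason was not tested. These genes were singled out after their values were seen.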
